A study of Mus musculus with 4 samples.

Results

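Intronic editing sites outside repeats were A-to-G changes, read on the strand of the host gene, that lay in an intron and in no annotated repetitive element. A site passed in a library when at least 5 reads covered it, at least 3 of them carried the altered base, and the editing rate (altered reads over all reads at the site) was 0.05 to 0.95. A member passed in at least 1 library, and 7392 of the 24200 sites of any kind that did so were members. The depth, the altered reads and the rate thus chose the members, and their levels are given below as a description. Where CON and TM were compared, the reads that chose a member also entered its comparison, unless the member was chosen in the other mouse, which is said at each such value.

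The 4 libraries came from cultured lung endothelial cells (ECs) of 2 male C57/BL6 mice aged 2 weeks, taken from separate litters and named EC1 and EC2. Both mice were labelled as an inducible, EC-specific knockout of ADAR1 (i-KO), so that the untreated control cells (CON) also carried the floxed alleles and the Cre recombinase. Cells of the same mouse were treated with tamoxifen (TM), which induces the deletion, or left as CON, and each mouse gave 1 CON and 1 TM library of total RNA depleted of ribosomal RNA. Where 4 values follow each other without names, they stand in library order, with CON before TM and EC1 before EC2. ADAR1 has both catalytic and RNA-binding parts, and the deleted exons lie toward the 3′ end of its gene.

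Adenosine-to-inosine editing is carried out by ADAR enzymes on double-stranded RNA, and inosine is read as guanosine when RNA is sequenced. In mouse, much of it falls in introns and 3′ UTRs, where inverted copies of SINEs (short interspersed nuclear elements, chiefly B1 and B2) fold back on each other, and edited adenosines then lie close together. Introns can also form duplexes without repeats, as in the transcript of Adarb1, which encodes ADAR2, the other active editing enzyme, and is known to be edited in its own pre-mRNA. The nucleotide 5′ of an edited adenosine is seldom guanosine. A base that differs between a mouse and the reference genome gives the same A-to-G signal in RNA.

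The sequences below show members from the grouped sites and the called sites that the results turn on. They are written 5′ to 3′ on the host strand, from GENCODE vM21 transcripts of the mm10 build that span the position, with the adenosines that are members in capitals. The first holds 3 members of Adarb1 at chr10:77322593-77322621 (minus strand), the second 3 further members of the same intron at chr10:77324046-77324074 (minus strand), the third 2 adjacent members of Flna at chrX:74226636-74226664 (minus strand). The sequence of Pwwp2a starts and that of H60b ends at the edge of an annotated exon, at chr11:43684145-43684159 and chr10:22286389-22286403 (plus strand), and each is therefore 15 bases long.
Adarb1: AcgaaggcgttgtAAgttactctttctgg
Adarb1: tgctggAggatgttAtaaatgaAaattta
Flna: cgtgtctcaggtctAAaggctttgaacag
Pwwp2a: AtgctAttgaatcaa
H60b: ttagagaaatgccaA
Capitals next to each other in Adarb1 and Flna mark neighbouring adenosines that were listed as separate sites.

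The gene counts served for checks of the libraries alone. All rows of the count tables summed to 131796753 to 207323870 per library, of which 0.823% to 0.858% fell on genes. All 8 endothelial marker genes were counted in every library, with 871 to 1086 CPM (counts per 1000000 counts on genes) in all, against 0 to 1.83 CPM for 6 leukocyte markers, none of which was counted in every library and 2 of which were at 0 in all. Fibroblast and smooth muscle markers summed to 50.6 to 68.4 CPM and epithelial markers to 2.45 to 8.43 CPM. At sites listed in exons 12 to 14 of Adar (the gene of ADAR1, exons counted in its GENCODE transcript of 15 exons), the depth was 135 to 182 reads at 3 sites in EC1 CON and 169 reads at 1 site in EC2 CON. EC1 TM listed no site there, and EC2 TM listed 2 at 55 and 76 reads, while the median depth in exons 1 to 11 was 664 and 960 reads in these TM libraries and 152.5 and 176 in CON.

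The number of passing members was higher in CON in EC1 and higher in TM in EC2. In library order there were 3576, 3086, 3065 and 4081 passing members, which was 28.8% to 33.4% of all passing sites of each library. Per 1000000 reads of the whole count table these were 26.9, 23.4, 21.4 and 19.7 members. Only 940 members (12.7%) passed in all 4 libraries, whereas 1043, 717, 612 and 1266 passed in a single library, again in library order. A library that does not list a site gives no depth for it, and its deposited rate is then 0, which was so for 1338 members in EC2 TM and up to 2163 in EC1 TM.

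Editing rates of passing members were centred on 0.5 in every library, higher than those of passing intronic sites in SINEs. Among passing members the median rate was 0.5 in all 4 libraries, with an interquartile range of 0.375 to 0.643 in the CON library of EC2 and of 0.333 to 0.625 in the others. Passing intronic SINE sites had lower medians of 0.308, 0.316, 0.375 and 0.333. A rate of 0.4 to 0.6 was found for 34.5% to 36.1% of passing members and for 21.8% to 26.5% of passing intronic SINE sites. Among passing 3′ UTR sites outside repeats the share was 31.7% to 38.6%, so that rates near 0.5 were not particular to introns. The median depth of passing members was only 13, 12, 10 and 12 reads in the same order, so that the 95% Wilson interval of 75.5% to 80.5% of them held 0.5. Such an interval covers counting error only. Low rates cannot reach the minimum of altered reads at such depths. In library order, all 126, 139, 79 and 150 passing members at rates of 0.05 to 0.1 had at least 20 reads. The centre at 0.5 thus describes passing sites, and the part of this limit in it was not tested. Passing intronic SINE sites met the same limit at median depths of 15, 16, 13 and 15 reads.

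**Figure D1:**
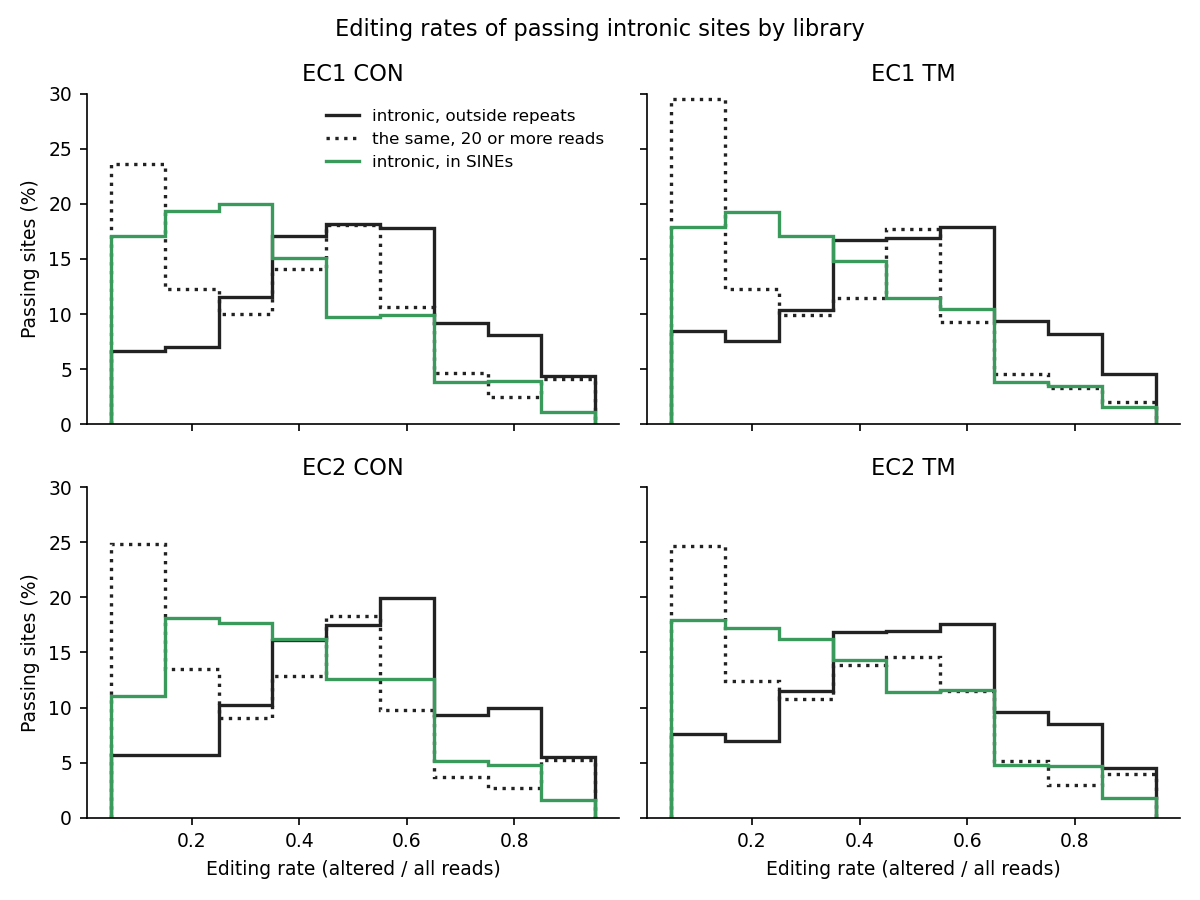
Share of passing sites (%) by editing rate in bins of 0.1, for each of the 4 libraries. The solid black line (intronic sites outside repeats) is highest between 0.35 and 0.65, the green line (intronic sites in SINEs) is highest below 0.35, and the dotted line (members with 20 or more reads) is highest at rates of 0.05 to 0.15 and rises again near 0.5.

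Passing members with more reads fell into low and middle rates. The minimum of altered reads lets the lowest rates pass only at high depth. In EC1 CON, all 238 passing members at rates of 0.05 to 0.15 had at least 20 reads. The lack of such rates at lower depth thus follows from the rule, and the values below describe deeper members alone. With at least 20 reads, the median rate was 0.377 (1007 members), 0.327 (881), 0.370 (705) and 0.365 (1261), against 0.15 to 0.182 for intronic SINE sites of that depth. For 3′ UTR sites outside repeats of that depth it was 0.301 to 0.410. In EC1 CON, 12.5% of these members had a rate of 0.05 to 0.1, 18.0% a rate of 0.1 to 0.2 and 32.8% a rate of 0.4 to 0.6. At least 20 reads in all 4 libraries were available for 434 members. Of these, 187 (43.1%) had a rate under 0.3 in every library, 83 (19.1%) had an interval that held 0.5 in every library, and 32 (7.37%) had a rate above 0.7 in every library.

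The limits of the rule cut through a dense range of values. Members at exactly 5 reads numbered 222 to 313 per library and those with exactly 3 altered reads 797 to 942, while 1597 to 2323 sites of the same kind did not pass because they had 2 altered reads. The rates nearest to the limits were 0.05 and 0.95 inside and 0.0494 and 0.951 outside. Between 8286 and 12183 listed sites per library lay above 0.95, as against 251 to 358 below 0.05.

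The members were unevenly spread over the genome. Chromosome 1 held 1533 members (20.7%), chromosome 12 held 994 (13.4%) and chromosome 14 held 772 (10.4%), although these chromosomes held 7.25%, 4.55% and 4.70% of all listed intronic sites outside repeats. In windows of 1 Mb, the 10 fullest of 956 windows held 1493 members (20.2%) and the 50 fullest 3747 (50.7%). Intronic SINE sites were more even, with 9.06% in their own 10 fullest windows and 26.4% in their 50 fullest. Windows with at least 20 members numbered 81 and held 4505 members (60.9%). The fullest lay on chromosome 12 from 111000001 to 112000000 in mm10, with 221 members in 11 hosts led by Ppp1r13b.

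Rates near 0.5 went with these full windows. In windows of at least 20 members the median rate was 0.542 in the CON library of EC2 and 0.5 in the others, and the interval of 83.9% to 87.4% of passing members held 0.5. In the other windows the medians were 0.429, 0.417, 0.444 and 0.429 in library order, and 59.2% to 66.4% of intervals held 0.5. Rates under 0.2 made up 3.89% to 6.33% of passing members in full windows and 16.8% to 22.3% in the others. The part of depth in these differences was not tested.

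Many members passed in a single mouse, by window and by host. A site listed in the other mouse can fail there through a rate above 0.95 or too few reads. Without sites above 0.95 in any library, 5619 members remained. Of all members, 2488 (33.7%) passed in at least 1 library of each mouse, 2283 (30.9%) in EC1 alone and 2621 (35.5%) in EC2 alone. For intronic SINE sites the share that passed in both mice was 29.8%. No DNA of these mice was analysed here, and the part of inherited variants in sites that passed in 1 mouse was not tested. Of the 81 full windows, 9 had at most 10% of their passes in EC2 and 24 had at most 10% in EC1. Members that passed in CON and TM of EC2 numbered 2037, and 500 of them (24.5%) were listed in no library of EC1. In the other direction, 210 of 1891 (11.1%) were listed in no library of EC2.

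The host genes numbered 1742, of which 923 (53.0%) held 1 member and 163 held 10 or more. The 10 hosts with the most members held 1069 (14.5%). Of the 9 described here, some had members that passed almost wholly in 1 mouse and others had members that passed in both.

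Samd4, which encodes an RNA-binding repressor of translation, held 174 members, of which 1, 0, 108 and 154 passed. The CON and TM libraries of EC1 listed 156 and 118 intronic sites in Samd4, in repeats or outside, at a median depth of 19.5 and 21 reads. This was more than the 6 and 10 reads in EC2. The listed depths of hosts given here are medians over all intronic sites that each library lists, repeats included. These were not the same sites in each library. Pcdh9, a protocadherin, held 94 members, with 1, 0, 65 and 52 passing in library order, at median listed depths of 18 and 16 reads in EC1 and 5 and 6 in EC2. Utrn, which encodes the dystrophin relative utrophin, showed the opposite, with 80 and 59 of its 93 members passing in EC1 and 2 and 0 in EC2, where its listed depth was 7 and 8 reads.

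Cacna1a, the pore-forming subunit of a neuronal calcium channel, held 71 members that passed only in EC2, with 46 in CON and 37 in TM at median rates of 0.871 and 0.833. Here EC1 listed 16 and 9 intronic sites, in repeats or outside, at a median depth of 2 and 1 reads, under the 5 reads that a pass needs. Foxn3, a forkhead repressor, held 78 members, with 70, 33, 31 and 12 passing. Ppp1r13b, which encodes the p53-binding protein ASPP1, also held 78, with 72, 41, 39 and 35. Esyt2, a tether of the endoplasmic reticulum to the plasma membrane, held 70, of which 65, 62, 55 and 60 passed at median rates of 0.567 to 0.625.

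The other leading hosts had lower rates and are uncertain. Gm21119, a predicted gene with near-identical copies nearby, held 121 members, with 74, 62, 53 and 77 passing at median rates of 0.155, 0.161, 0.25 and 0.182. Erdr1, which lies in the region shared by the X and Y chromosomes, held 71 members, with 50, 55, 39 and 53 passing at 0.130 to 0.181. Reads of such genes may be split between copies, and their rates cannot be assigned to 1 copy.

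**Figure D2:**
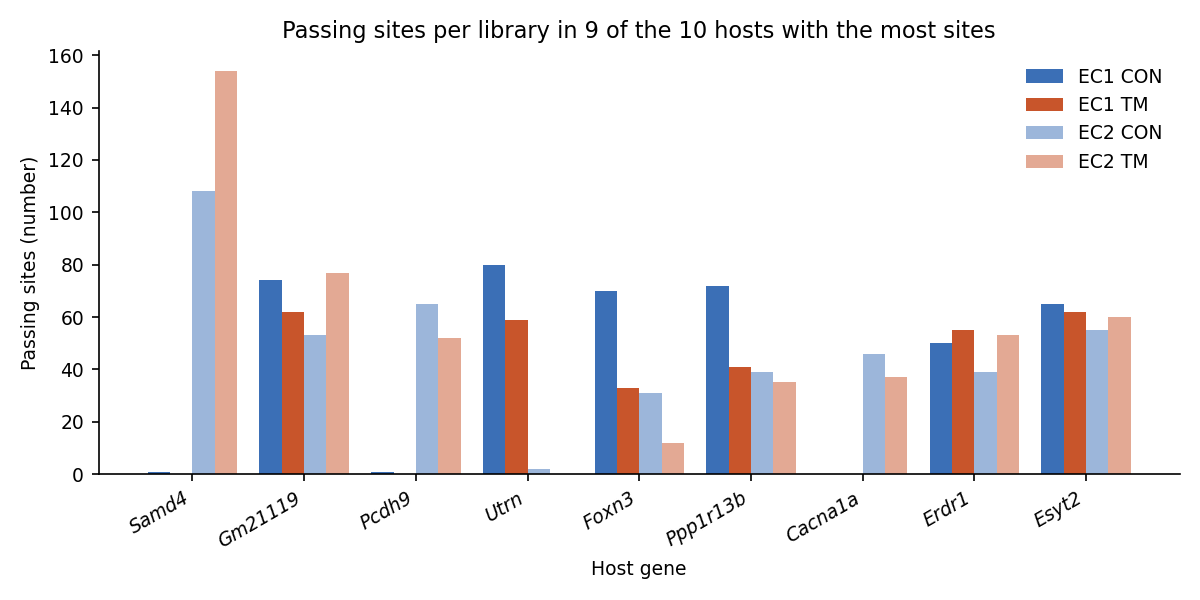
Number of passing members in each library (bars, blue CON and orange TM, dark EC1 and light EC2) for 9 of the 10 hosts with the most members. Samd4, Pcdh9 and Cacna1a have bars almost only in EC2 and Utrn almost only in EC1, whereas Esyt2 has bars of like height in all 4 libraries.

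Short-range grouping was weaker than in SINEs. Another member lay within 100 bases of 2000 members (27.1%, Wilson interval 26.1% to 28.1%), against 2515 of 5620 intronic SINE sites (44.8%, 43.5% to 46.1%). Within 10 bases the shares were 8.77% and 24.0%. At 1000 bases the order turned, with 60.1% of members and 57.7% of intronic SINE sites. Neighbouring sites share reads and hosts, so these intervals, which cover counting error only, are too narrow for a comparison of independent sites.

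**Figure D3:**
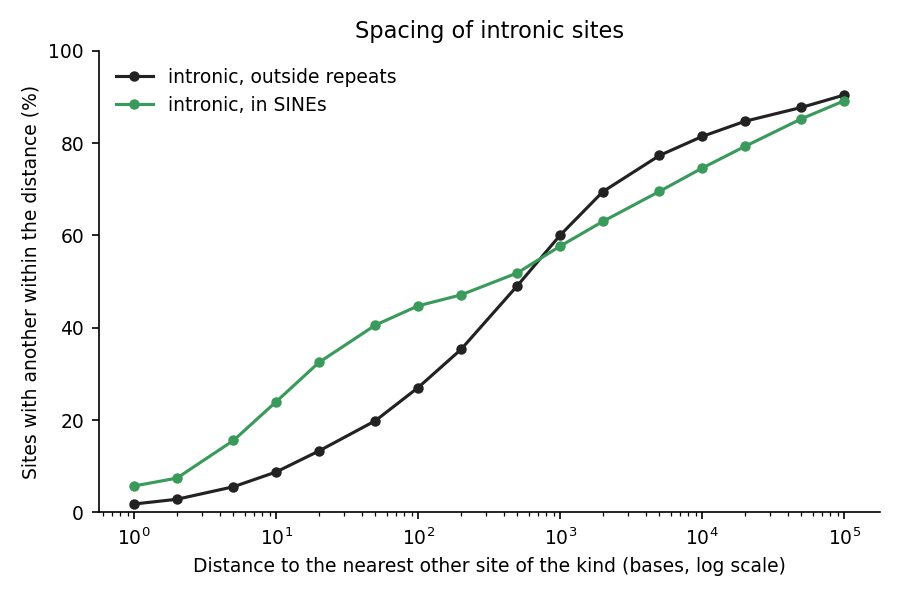
Share of sites (%) with another site of the same kind within the distance on the x axis (bases, log scale). At 10 bases 8.77% of intronic sites outside repeats (black) and 24.0% of intronic SINE sites (green) had a neighbour, and the lines meet before 1000 bases.

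Members joined at steps of up to 100 bases gave 5392 sites alone, 629 pairs and 193 groups of at least 3 members. These groups held 742 members, as compared with 1225 intronic SINE sites (21.8%) in 318 such groups. Grouped members had lower rates than members alone, with medians of 0.4, 0.385, 0.429 and 0.405 against 0.5 in each library. Rates under 0.2 made up 16.2% to 21.7% of passing grouped members and 7.08% to 10.8% of those alone. The median depth of passing grouped members was 17, 17, 12 and 16 reads, against 12, 12, 10 and 12 for those alone. Low rates pass the limit of 3 altered reads only at high depth, and the part of depth in these differences was not tested. Full windows held 42.4% to 57.0% of passing grouped members and 62.9% to 68.0% of those alone.

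The largest group lay in Slc25a33, a mitochondrial carrier of pyrimidine nucleotides, with 20 members in 331 bases at chr4:149757104-149757434. A library that lists fewer members of a group leaves out their reads, so the reads of a group were summed, in each mouse, over the members that its CON and TM libraries both listed, a choice made after seeing the data. In EC1, 15 members of Slc25a33 gave 77 of 221 altered reads in CON and 118 of 339 in TM, a fraction of 0.348 in both. In EC2, 13 members gave 34 of 93 and 131 of 301, or 0.366 and 0.435, higher in TM.

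A group of 10 members lay in Lmbrd1, which encodes a lysosomal protein of cobalamin export. Its fraction was 0.156 in CON and 0.152 in TM over 7 members in EC1, and 0.224 and 0.232 over 6 members in EC2, so that the order differed between the mice. Summed over every member that a library lists, it was 0.189, 0.139, 0.210 and 0.192, lower in TM in both mice. The direction in EC2 thus depended on which members were summed.

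A group of 10 members in 53 bases of Plxna4, a semaphorin co-receptor, had 55 of 234 and 16 of 109 altered reads over 9 members in EC1 and 25 of 143 and 6 of 49 over 5 members in EC2. Its fraction was 0.235 and 0.147 in EC1 and 0.175 and 0.122 in EC2, lower in TM in both mice. The group of 10 in Pros1, the gene of the anticoagulant protein S, passed at 8, 0, 8 and 2 of its members. In EC2, 6 members gave 32 of 59 altered reads in CON and 14 of 61 in TM, or 0.542 and 0.230, while EC1 TM had 7 reads in all, too few to show a difference.

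The group in Ss18, a subunit of a chromatin remodelling complex, held 9 members in 28 bases. Its fraction was 0.342 in CON and 0.167 in TM over 7 members in EC1, and 0.238 and 0.205 over 4 members in EC2. Of the 65 groups with at least 20 summed reads in each library, the fraction was lower in TM in both mice in 19 (29.2%), higher in both in 11 (16.9%) and opposite in 31 (47.7%). Of 144 intronic SINE groups of that depth, 83 (57.6%) were lower in both mice and 14 (9.72%) higher. Over every listed member, the counts were 26 lower and 11 higher of 70 groups.

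Adarb1 held 13 members, all in the intron from 77322583 to 77325866 on chromosome 10, in a group of 7 and a group of 6. In the first group, the site at 77322607 was altered in 57 of 131, 9 of 36, 71 of 159 and 28 of 71 reads (0.435, 0.25, 0.447 and 0.394). Its neighbour at 77322608 was at 0.152, 0.0541, 0.201 and 0.0694. The most edited site of Adarb1, at 77324060 in the second group, was altered in 66 of 81, 10 of 17, 61 of 72 and 26 of 39 reads (0.815, 0.588, 0.847 and 0.667). All 3 were lower in TM in both mice, and none was called by Fisher's exact test in either (adjusted p = 0.229 to 1 over the tests of each mouse). The exact Mantel-Haenszel test, which keeps the mice as separate strata, called the site at 77322608 lower in TM (adjusted p = 0.0449). Of the 13 members, 5 had a rate at least 0.05 higher in CON in both mice and 0 in TM. The depth in TM was lower than in CON in both mice, with medians of 24 and 40.5 against 81.5 and 78 reads at listed members.

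In Flna, the gene of filamin A, whose mRNA is a known editing target, the adjacent sites at 74226649 and 74226650 on chromosome X differed in rate. The first was altered in 42 of 183, 32 of 221, 44 of 166 and 42 of 284 reads (0.230, 0.145, 0.265 and 0.148) and the other in 149 of 184, 174 of 221, 131 of 165 and 184 of 285 (0.810, 0.787, 0.794 and 0.646). The site at 74226650 fell in EC2 (Fisher's exact test, adjusted p = 0.0405) and was not called in EC1 (adjusted p = 1). The site at 74226649 fell in the exact Mantel-Haenszel test over both mice (adjusted p = 0.00743), with the same direction in 2 of 2 mice.

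**Figure D4:**
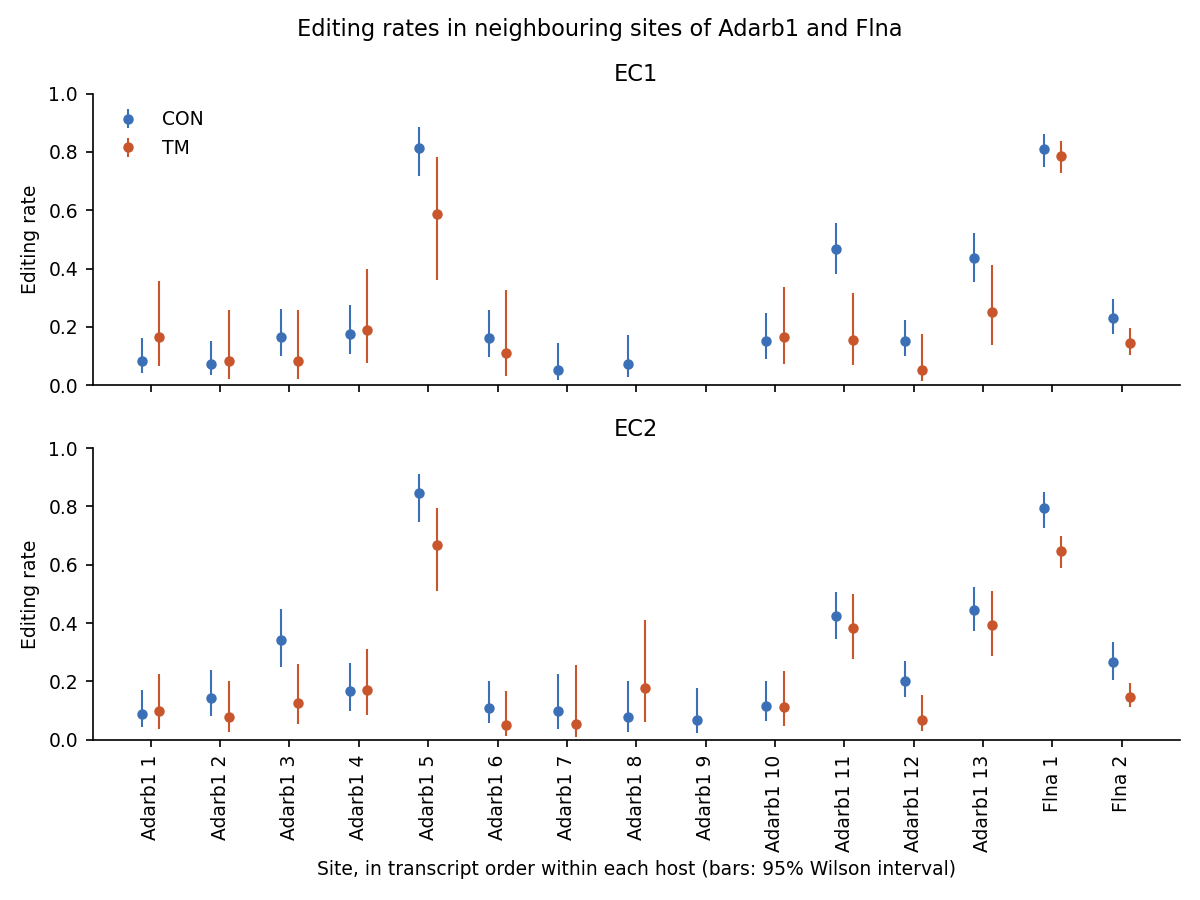
Editing rate (y axis) with 95% Wilson intervals at the 13 members of Adarb1 and the 2 adjacent members of Flna, in CON (blue) and TM (orange) of EC1 (top) and EC2 (bottom), with no point where a library does not list the site. Rates differ widely between neighbouring sites, such as 0.810 and 0.230 at the Flna sites in EC1 CON, and the site with the highest rate in each host is the same in all 4 libraries.

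Across all members, the editing rate changed little between CON and TM, and in directions that depended on how unlisted sites were counted. Over members that passed in the mouse, with an unlisted site at its deposited rate of 0, the mean rate was 0.439 in CON and 0.430 in TM in EC1 (4771 members) and 0.450 in CON and 0.457 in TM in EC2 (5109). TM minus CON was -0.00923 in EC1 and 0.00711 in EC2, a mean of -0.00106 ± 0.0116 (SD, n = 2 mice). Over the members with at least 5 reads in both libraries of the mouse, it was 0.000735 in EC1 (2946 members) and -0.00977 in EC2 (3127), a mean of -0.00452 ± 0.00743 (SD). The direction thus turned in both mice.

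Members could also be chosen in the other mouse, so that passing in the measured libraries had no part in the choice. The differences were then 0.00274 in EC1 and -0.00298 in EC2 with unlisted sites at 0 (exact sign permutation test over 2 mice, two-sided p = 1). With at least 5 reads in both measured libraries they were -0.000673 in EC1 (2259 members) and -0.00625 in EC2 (2152), a mean of -0.00346 ± 0.00395 (SD, exact sign permutation p = 0.5, the smallest that this test can give over 2 mice). Intronic SINE sites chosen in the same way differed by -0.0312 in EC1 (1701 sites) and -0.0551 in EC2 (1690). The difference of the members was higher than theirs by 0.0305 and 0.0488 (mean 0.0397 ± 0.0129, SD, n = 2 mice, exact sign permutation p = 0.5). A minimum of reads in both measured libraries still selects sites that both list. A library in which a site has no altered reads may not list it. Sites whose editing was lost in TM may therefore be missing from every comparison that needs reads in both libraries.

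Weighted by reads over members with at least 5 reads in both libraries, the fraction was lower in TM in both mice, by -0.00512 in EC1 and -0.0283 in EC2. On the same sites with equal weights, members in groups of at least 3 differed by -0.0169 in EC1 and -0.0297 in EC2, and members alone by 0.00429 and -0.00672. With unlisted sites at 0, these values were -0.0386 and -0.0216 for grouped members and -0.00584 and 0.00977 for members alone. Grouped members thus had the lower rate in TM in both mice either way, while the direction of members alone turned.

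Rates that had been low in the other mouse also changed little. With at least 20 reads in all 4 libraries, members whose rate in EC1 was under 0.3 differed by -0.00370 in EC2 (218 members), and those under 0.3 in EC2 by -0.00569 in EC1 (209). Intronic SINE sites chosen in the same way differed by -0.0536 in EC2 (305 sites) and -0.0305 in EC1 (300). Among the 434 deep members, 217 were lower and 202 higher in TM in EC1, and 232 lower and 197 higher in EC2. For 375 intronic SINE sites these numbers were 246 and 124 in EC1, and 267 and 103 in EC2.

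**Figure D5:**
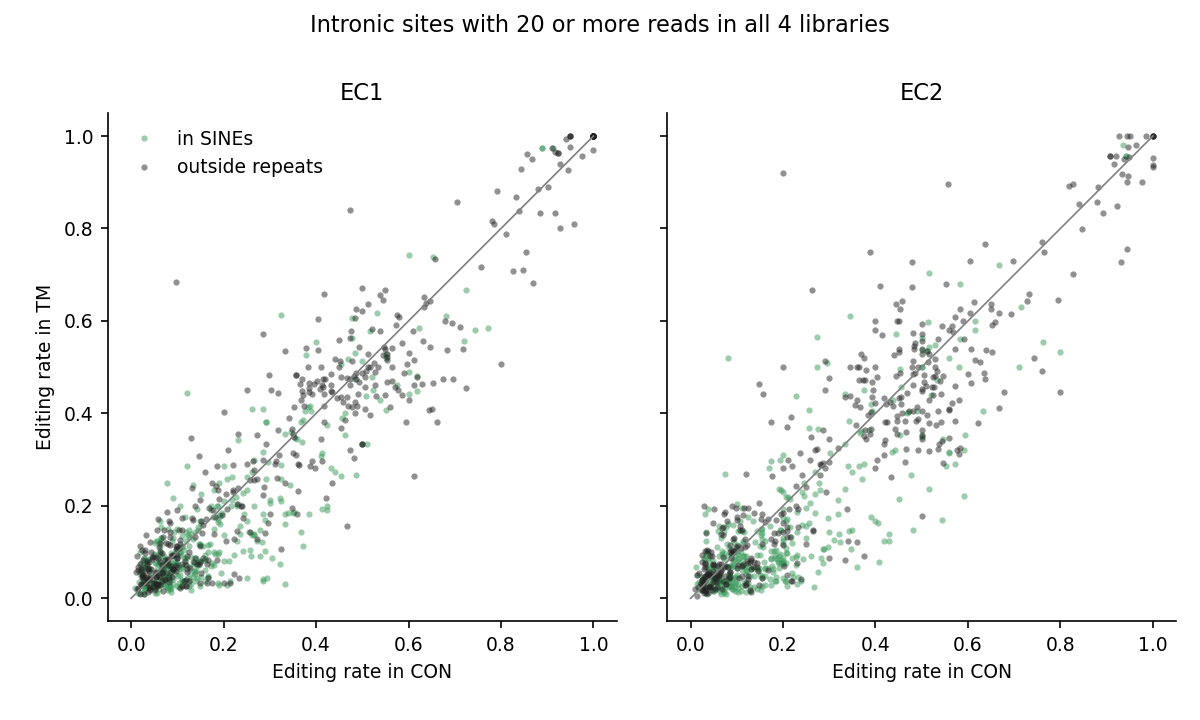
Editing rate in TM against CON for sites with at least 20 reads in all 4 libraries, in EC1 (left) and EC2 (right), with the line of equal rates. The 434 members (black) lie on both sides of the line at low rates and around 0.5, whereas more of the 375 intronic SINE sites (green) lie below it (246 in EC1 and 267 in EC2).

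By the limits that the study states (a rate difference of at least 0.05, with the depth, altered reads and upper rate limit in the higher library), 322 members (4.36%) had the higher rate in CON in both mice. Over all 24200 sites this share was 7.35%, and over intronic SINE sites it was 7.62% (428 of 5620). The higher rate in TM in both mice was found for 377 members (5.10%), against 3.92% of all sites and 2.33% of intronic SINE sites (131). A further 580 members (7.85%, against 6.52% of all sites) were opposite in the mice. Within EC1, 1786 of 4771 members (37.4%, against 43.5% of all sites) were higher in CON and 1593 (33.4%, against 28.6%) higher in TM. Within EC2 these were 1553 of 5109 (30.4%, against 37.2%) and 1978 (38.7%, against 33.4%).

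The 322 members were carried by 155 hosts and had median rates of 0.545, 0.308, 0.571 and 0.362, values that the limits had chosen. At least 5 reads in every library were available for 220 of the 322 and for 218 of the 377, and the remainder included sites that 1 of the libraries did not list. Full windows held 62.4% of the 322 and 66.8% of the 377, close to the 60.9% of all members. Hosts chosen here after their values were seen included Rcsd1 with 7 and 0, Pros1 with 6 and 0, and Tor3a and AI607873 with 0 and 9 each.

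Fisher's exact test on the altered and unaltered reads of the CON and TM libraries of a mouse, with Benjamini-Hochberg adjustment over all sites tested in that mouse, called few members. It compares libraries and not conditions, and sites that a library of the mouse did not list were not tested. In EC1, of 2946 members tested, 0 were lower in TM (against 0.898% of all sites tested) and 3 were higher (against 0.0612%), with 55 (1.87%, against 5.21%) and 59 (2.00%, against 1.52%) at an unadjusted p under 0.05. In EC2, of 3127 members tested, 4 were lower (against 2.37%) and 5 higher (against 0.0865%), with 86 (2.75%, against 8.48%) and 45 (1.44%, against 1.31%) at an unadjusted p under 0.05. Of intronic SINE sites tested, 1 of 2350 (0.0426%) was lower in EC1 and 7 of 2035 (0.344%) in EC2, and 0 were higher in either mouse. Few lower calls were thus not particular to members. For 3′ UTR sites outside repeats, 11 of 450 (2.44%) and 23 of 590 (3.90%) were lower, and 0 higher. Where sites were chosen in the other mouse, 0 of 2259 members were lower in EC1 (against 1.07% of all sites tested) and 3 higher (against 0.0763%), and in EC2 3 of 2152 were lower (against 3.04%) and 5 higher (against 0.142%). Of 1536 members tested in both mice, 0 were lower in both (against 0.944%) and 1 was higher in both (against 0.0185%), which was a site in H60b.

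H60b encodes a ligand of the lymphocyte receptor NKG2D. Its site at chr10:22286403 (plus strand) was altered in 7 of 72, 26 of 38, 17 of 85 and 80 of 87 reads. Both TM libraries were far above both CON libraries, at rates of 0.684 and 0.920 against 0.0972 and 0.2. The difference was 0.587 in EC1 and 0.720 in EC2 (Fisher's exact test, adjusted p = 3.62e-07 and 1.07e-19), and this was the only site of any kind called higher in both mice. The authors place it on the first position of an intron, and it is the last base of an exon in GENCODE vM21. All 5 members at the start coordinate of their deposited intron lay in an exon of GENCODE vM21.

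Of the other members called in 1 mouse by Fisher's exact test, several lay next to an exon. The site of Ctla2b at 60896234 on chromosome 13, 4 bases from the end of its intron, was altered in 7 of 167, 17 of 140, 5 of 148 and 32 of 225 reads, and rose in EC2 (Fisher's exact test, adjusted p = 0.0284). The sites of Col18a1, the gene of collagen XVIII, at 77059102 and 77078453 on chromosome 10 lay 3 and 4 bases from an intron end and rose in EC2 (Fisher's exact test, adjusted p = 0.0444 and 0.0493). In EC1 the first was higher in TM by 0.102 and the second lower by -0.118, and neither was called. Of the 27 members called by Fisher's exact test in a mouse or by the exact Mantel-Haenszel test, 8 (29.6%) lay within 4 bases of an intron end, as did 496 (6.71%) of all members. The latter share includes members that were not tested, and the share among tested members was not computed. The part of splicing in these counts was not tested. Within groups of at least 3 members, 7 members (0.943%) lay within 10 bases of an intron end, against 514 (9.53%) of members alone.

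Calls away from exons included Pcdh9, where the sites at 93882064 and 93882102 on chromosome 14 fell in EC2. The first was altered in 28 of 77 reads in EC2 CON and 9 of 99 in EC2 TM (adjusted p = 0.00132) and the other in 26 of 73 and 11 of 90 (Fisher's exact test, adjusted p = 0.0289), and EC1 listed neither. The site of Inf2, a formin, at 112609435 on chromosome 12 was altered in 27 of 57, 47 of 56, 21 of 38 and 34 of 50 reads and rose in EC1 (Fisher's exact test, adjusted p = 0.0102). It was higher in TM in 2 of 2 mice. The site of Mical2 at 112282928 on chromosome 7 rose in EC1, from 6 of 36 to 11 of 15 reads (Fisher's exact test, adjusted p = 0.0246). EC2 CON did not list this site, and EC2 TM had 1 of 11 reads altered. The site of Csnk1d at 120971487 on chromosome 11 fell in EC2, from 14 of 16 to 8 of 24 reads, while it was higher in TM in EC1 (8 of 18 and 13 of 26).

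Among the 434 deep members, the 6 with the largest change lower in TM in both mice, ranked by the smaller of the changes of the mice, lay in Pwwp2a, Map4k4, Sfi1, Ifrd1, Nrp2 and Esyt2, chosen by that change. The Pwwp2a site, in the gene of a chromatin reader, was altered in 25 of 42, 8 of 21, 18 of 31 and 15 of 48 reads. Its rate was 0.595, 0.381, 0.581 and 0.313, and it was called in neither mouse (Fisher's exact test, adjusted p = 0.928 and 0.334). Map4k4, a kinase gene, had a site altered in 38 of 62, 9 of 34, 19 of 34 and 9 of 26 reads, which fell in the exact Mantel-Haenszel test over both mice (adjusted p = 0.0134). Sfi1 has near-identical copies and its site is uncertain. Nrp2, a co-receptor for VEGF-C and semaphorins, had a site at 0.474 and 0.32 in EC1 and 0.542 and 0.381 in EC2.

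By the same ranking, the 6 largest changes higher in TM in both mice lay in H60b, Arhgap29, Inf2 with 2 sites, Erdr1 and Map4k4. Arhgap29, which encodes a GTPase-activating protein, had a site altered in 32 of 79, 49 of 81, 28 of 62 and 27 of 45 reads, or 0.405 and 0.605 in EC1 and 0.452 and 0.6 in EC2, called in neither mouse (Fisher's exact test, adjusted p = 0.483 and 0.817). 

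The exact Mantel-Haenszel test over both mice called 11 members lower in TM (0.534% of 2061 tested, against 5.02% of all sites) and 9 higher (0.437%, against 0.405%). Of 1582 intronic SINE sites tested in this way, 20 (1.26%) were lower and 3 (0.190%) higher. Fisher's exact test on the reads of both mice pooled called 13 lower (0.631%, against 5.17%) and 10 higher (0.485%, against 0.446%). The 11 lower sites lay in Adarb1, Flna, Map4k4, Sfi1, Krtcap2, Lars, Rnd3, Sart3, Mrs2 and Pign, which held 2, and the 9 higher sites in H60b, Inf2, Ctla2b, Bcas3, Ctgf, and Kif26a and Itpr1 with 2 each. In Krtcap2, 6 of 30, 4 of 123, 4 of 31 and 4 of 222 reads were altered at a site 2 bases from an intron end (exact Mantel-Haenszel test, adjusted p = 0.00339). In Bcas3 the rate was 0.278 and 0.7 in EC1 and 0.429 and 0.923 in EC2 (exact Mantel-Haenszel test, adjusted p = 0.00696).

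Genes known as editing hosts in mouse (42 listed) held 69 members in 7 hosts, among them Copa with 35, Adarb1 with 13 and Flna with 5. Of the 69, 8 (11.6%, against 7.35% of all sites) were higher in CON in both mice, 5 of them in Adarb1. A further 3 (4.35%, against 3.92%) were higher in TM in both mice. Fisher's exact test called 1 of the 69, the Flna site above, lower in EC2. Copa, which encodes a subunit of the COPI vesicle coat, had 25, 24, 26 and 31 passing members at median rates of 0.440 to 0.5, unlike the low rates of Adarb1.

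Interferon-stimulated genes (ISGs, 80 listed) held 93 members in 19 hosts, and these passed mainly in TM, with 23, 64, 20 and 88 in library order. Ifi204, which encodes a DNA sensor, held 37, of which 13, 34, 12 and 36 passed at median rates of 0.667, 0.523, 0.633 and 0.482. The median depth at its listed members was 5.5 and 47.5 reads in EC1 and 6 and 89 in EC2, so that passing moved with depth. Tor3a, a torsin gene, held 17 members, with 7, 17, 4 and 17 passing, and Gbp2 and Gbp3, which encode interferon-induced GTPases, 10 and 8. The fifth host, Phf11d, held 4. Of the 93, 1 was higher in CON in both mice and 16 (17.2%, against 3.92% of all sites) higher in TM, of which 9 lay in Tor3a and 6 in Ifi204. These limits ask for depth and altered reads only in the higher library. At listed members of Tor3a the median depth was 8 and 63 reads in EC1 and 4 and 72 in EC2. The part of depth in the 16 and 1 was not tested. None of the 93 was called by Fisher's exact test in EC1 (35 tested) or EC2 (31 tested).

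Endothelial genes (32 listed) held 46 members in 12 hosts, with 36, 30, 35 and 27 passing. Fli1, an ETS transcription factor of ECs, held 24, of which 23, 21, 23 and 14 passed, at median rates of 0.484, 0.464, 0.516 and 0.485. Emcn and Eng, which encode endothelial surface glycoproteins, held 4 each, and Flt4, the receptor of VEGF-C, and Plxnd1, a semaphorin receptor, 3 each. Of the 46, 4 (8.70%, against 7.35% of all sites) were higher in CON in both mice, all of them in Fli1, and 1 (2.17%, against 3.92%) higher in TM, and none was called in EC1 (32 tested) or EC2 (31 tested) by Fisher's exact test.

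The sequence around members could be read where a GENCODE vM21 transcript covers the position, which was so for 976 members (13.2%), 411 of them in transcripts classed as retained introns. At all 976 the reference base on the host strand was adenosine. An exon on the opposite strand covered 228 members (3.08%), where a T-to-C change of the other gene cannot be told apart without strand. Guanosine was the 5′ neighbour of 17.9% of members with a readable neighbour (174 of 973, Wilson interval 15.6% to 20.4%), against 25.8% of 37403 other adenosines within 100 bases. Adenosine was also less frequent there, at 21.9% against 27.6%. Cytidine made up 34.8% against 28.9% and thymidine 25.4% against 17.6%. In full windows the share of members preceded by guanosine was 20% and in the other windows 16.6%, and their intervals (16.2% to 24.4% and 13.8% to 19.8%) overlap.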

How the data were processed

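The members, gene lists and tests were chosen with earlier results of these data known. According to the notes of the authors, read pairs were trimmed with Trimmomatic 0.38, aligned to mm10 (GRCm38) with STAR 2.6.1a and counted per gene with HTSeq 0.11.2, and the raw counts were deposited without normalization. Rows that name no gene made up the rest of each table beyond the 0.823% to 0.858% on genes, and stayed out of the CPM. Candidate sites were called by the authors with BCFtools mpileup in each library, annotated to gene regions and to RepeatMasker elements, and deposited as counts of reference and altered reads and as the editing rate, a fraction of altered reads. The columns of the site table were given to libraries by the prefix of the mouse and treatment, and the columns of a supplementary list with named libraries held the same values. No per-sample column was left without a library.

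Rates were recomputed from the counts. Analyses were run in Python 3.11.15 with numpy 2.4.6, pandas 2.3.3 and scipy 1.17.1. Each library is 1 culture, so n = 2 mice, and p-values over mice measure only the spread between these. The mean difference was tested by an exact sign permutation over the mice, and reads at single sites by Fisher's exact test, at sites with 5 or more reads in both libraries and a pass in either, with Benjamini-Hochberg adjustment at 0.05 over all sites tested. The Mantel-Haenszel test kept the mouse as a block, since the CON and TM cultures of a pair came from the same mouse, and took its p from the exact conditional distribution of the altered reads. On simulated data for EC1, with 200 of 9800 sites lowered by a known factor, Fisher's exact test recovered 18.5% with 1 false call, and 63.0% of those at 20 or more reads. For EC2, of 10402 sites, it recovered 24% and 74%. Sites of low rate were not among those lowered, and the factor was large. Recovery of smaller changes and of changes at low rates was therefore not measured. Named are the 10 hosts with the most members, the 6 largest groups, members called the same way in both mice, the 6 largest changes each way among members with 20 or more reads in all libraries, and up to 5 hosts of each gene list. Of these, 1 host and 1 group are not reported here. Sites named only because they were called in 1 mouse or by the Mantel-Haenszel test were chosen after their values were seen. Copies, groups and positions are those of the deposited annotation, and GENCODE vM21 gave exons and sequence. Alternatives were limits on depth, altered reads, rate and listing, other weights and distances, either mouse left out, and pooled reads. Sites chosen in the other mouse, and sums over sites listed in both libraries, were added after seeing the data.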

Additional observations from a re-analysis of the deposited data

How the results depend on the processing

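The number of members was 4755 at a depth of at least 10, 2120 at 20, 4305 with 5 altered reads, and 4771 to 5109 with 1 mouse left out. Members with the higher rate in CON in both mice numbered 169 at a depth of 10, 59 at 20, 191 with 5 altered reads and 208 at a rate difference of 0.10, and those with the higher rate in TM 224, 98 and 216 at the first 3 of these. With at least 5 reads in all libraries, 218 were higher in TM. By Fisher's exact test in both mice the counts were 0 and 1. The mean difference over both mice kept its sign under the alternatives except without EC1 and ranged from -0.00923 to 0.00711 with 1 mouse left out, and its exact permutation p was 1 over the 4 libraries with no replicate block. It was -0.0219 when weighted by reads (exact permutation p = 0.5). Values of the single mice changed sign where unlisted sites were left out. At a depth of 20, Fisher's exact test called 2 members lower in EC1. Pooled reads (no replicate block) called 13 lower and 10 higher, and the Mantel-Haenszel test (replicate block) 11 and 9. The share with a neighbour was 29.8% at a depth of 20, 24.3% with 5 altered reads, 19.9% within 50 and 35.3% within 200 bases, and 26.2% to 27.9% with 1 mouse left out. The share with a 5′ guanosine was 20.8% at a depth of 20, 19.9% without sites above 0.95, 16.9% with 5 altered reads, 18.6% without sites within 10 bases of an exon, and 16.9% to 17.9% with 1 mouse left out. Chosen after seeing the data, leaving out the full windows kept 2887 members, of which 121 were higher in CON and 125 in TM in both mice, with 1 called higher in EC1, 1 lower in EC2 and a 5′ guanosine share of 16.6%. Leaving out sites within 10 bases of an exon, also chosen then, left 1 member higher in EC2. In all, 56 of 96 recomputed values counted as the same. A mean difference did so by its sign and a count by staying within a set factor. The shares did so within the SD of the single-mouse values, 1.18 percentage points for neighbours and 0.681 for 5′ guanosine. The pooled and Mantel-Haenszel counts entered under each mouse. The cause of these changes was not tested. Only 434 members had 20 reads in every library, and at shallower sites a difference inside the counting intervals was not detectable. The sign permutation over 2 mice cannot give a p under 0.5.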
